A study of Mus with 51 samples.

Results

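The genes Cd5, Cd6, Ly6c1 and Ly6c2 serve as marks of the weak, basal signal that naive T cells receive from self-peptides, and their RNA was followed here in CD4 T cells given no peptide, a self-peptide, an agonist peptide or both peptides. The 4 genes were taken by symbol, with earlier results of these data known, and they are 4 of 34923 features in the count table. All 4 were among the 17211 genes with enough counts to be tested. Poly-adenylated RNA of sorted lymph node T cells was sequenced in 51 libraries, which form 18 groups of 6 sorting phenotypes at 1, 6 and 24 h. The phenotypes were no peptide (NP), the peptide labelled GP alone, the peptide labelled MCC alone with cells sorted as CD69-hi or CD69-lo, and MCC+GP with cells sorted as CD69-hi or CD69-lo. Each group held 3 libraries, except NP at 6 h, GP at 6 h and MCC CD69-lo at 6 h, which held 2.

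Every group, controls included, came from the 5C.C7 TCR transgenic strain on the B10.A background. This strain carries the Rag2tm1Fwa allele, which prevents rearrangement of endogenous antigen receptors, and the transgenes Tcra5CC7 and Tcrb5CC7. All T cells therefore bear the same receptor, whose agonist is a peptide of moth cytochrome c (MCC), and differences in self-reactivity between T cell clones were not part of the design. GP is read here as the endogenous self-peptide to which the series title refers. Doses, the cells that presented the peptides, the age of the animals and the origin of the replicates are not given in the sources used here. The p-values therefore measure the spread between these libraries, which may be technical.

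CD5 is a transmembrane glycoprotein of the scavenger receptor family that dampens signalling through the T cell receptor, and its surface level is set by the strength of the self-peptide signal in the thymus and maintained by it in the periphery. CD6 is a related receptor that binds ALCAM and docks the adaptors SLP-76 and GADS through its cytoplasmic tail. Ly6C is a small surface protein held by a lipid anchor, encoded by the near-identical genes Ly6c1 and Ly6c2. Among naive CD4 T cells it is low where CD5 is high, and interferons induce it. Ly6c2 RNA is also a known product of monocytes and plasmacytoid dendritic cells. In the GRCm38.p6 assembly of RefSeq, which corresponds to the mm10 build named in the submitters' processing notes, Cd5 (ENSMUSG00000024669) lies at chr19:10718107-10739026. Cd6 (ENSMUSG00000024670) lies at chr19:10789339-10830062, 50.3 kb away with no protein-coding gene between them. Ly6c1 (ENSMUSG00000079018) lies at chr15:75044018-75048920, and Ly6c2 (ENSMUSG00000022584) lies 59.2 kb away at chr15:75108161-75112066. Reads that fall in sequence shared by Ly6c1 and Ly6c2 could be assigned to either gene or to neither, so the split between them is uncertain.

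Libraries held 29030 to 10278776 counts, with a median of 5436653. The 3 MCC+GP CD69-lo libraries at 24 h were the shallowest, with 237390, 29030 and 301455 counts for replicates 1, 2 and 3. The MCC CD69-lo libraries at 24 h held 941304 to 2870776. The CD69-hi libraries at 1 h were also shallow, with 852129 to 3346959 counts for MCC and 930161 to 1105292 for MCC+GP. All 12 T cell defining markers were detected in every group. Their summed level was 8210 ± 611 CPM (counts per 1000000 counts; SD, n = 3) in NP cells at 1 h and 2863 ± 586 in MCC+GP CD69-lo cells at 24 h, the lowest group. RNA of other cell types was present as well: the summed B cell markers were 547 ± 99.2 CPM in NP cells at 1 h and 3347 ± 837 in MCC CD69-hi cells at 1 h. In bulk RNA, fewer cells of a type and less RNA per cell cannot be told apart. Levels of 1 gene across libraries are given below in CPM scaled by trimmed means of M-values (TMM), and comparisons between genes use the transcript level per length in the deposited table, whose values sum to about 10000 per library.

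In cells given no peptide, Cd5 and Cd6 RNA were lower at 6 h than at 1 h, while neither Ly6c gene passed the test. Cd5 stood at 58.7, 58.4 and 55.7 CPM in the 3 NP libraries at 1 h, at 10.05 and 15.7 CPM at 6 h, and at 30.4, 45.9 and 41.2 CPM at 24 h. Cd6 stood at 104, 89.2 and 83.4 CPM at 1 h, at 29.3 and 32.4 CPM at 6 h, and at 46.0, 50.1 and 57.9 CPM at 24 h. For both genes each 6 h library lay below every library of the other 2 times, and the 24 h libraries lay below those of 1 h. From 1 to 6 h Cd5 fell 4.49-fold (log2 fold change -2.17 ± 0.39 (SE), edgeR quasi-likelihood test, adjusted p = 0.000133) and Cd6 fell 2.99-fold (log2 fold change -1.58 ± 0.27, adjusted p = 4.88e-05). Of all genes tested, 8.75% were called lower and 7.78% higher between these times. From 1 to 24 h, Cd6 was lower by a log2 fold change of -0.84 ± 0.24 (adjusted p = 0.00659), and the value for Cd5 was -0.55 ± 0.32 (adjusted p = 0.225), which was called when only these groups entered the fit (-0.56, adjusted p = 0.00533). In that comparison 12.6% of genes were called lower. The Cd6 call at 24 h was lost without NP replicate 1 at 1 h (adjusted p = 0.0593).

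Ly6c1 was abundant in the same cells and Ly6c2 was scarce. Ly6c1 stood at 133, 167 and 107 CPM in NP libraries at 1 h, at 217 and 155 CPM at 6 h, and at 171, 155 and 186 CPM at 24 h, and the ranges of the 3 times overlapped. Ly6c2 rested on 1 to 31 counts per NP library, with 4.76, 4.20 and 2.14 CPM at 1 h, 3.13 and 0.704 CPM at 6 h, and 0.201, 1.32 and 4.10 CPM at 24 h. Per length, Ly6c1 RNA was 7.74 times the level of Cd5 RNA in NP cells at 1 h, 48.8 times at 6 h and 14.7 times at 24 h. The ratio was highest at 6 h, the time at which Cd5 itself was lowest. Ly6c2 took 2.62 ± 0.76% of the counts of both Ly6c genes at 1 h (SD, n = 3), 0.938 ± 0.685% at 6 h (n = 2) and 1.04 ± 1.03% at 24 h (n = 3).

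**Figure D1:**
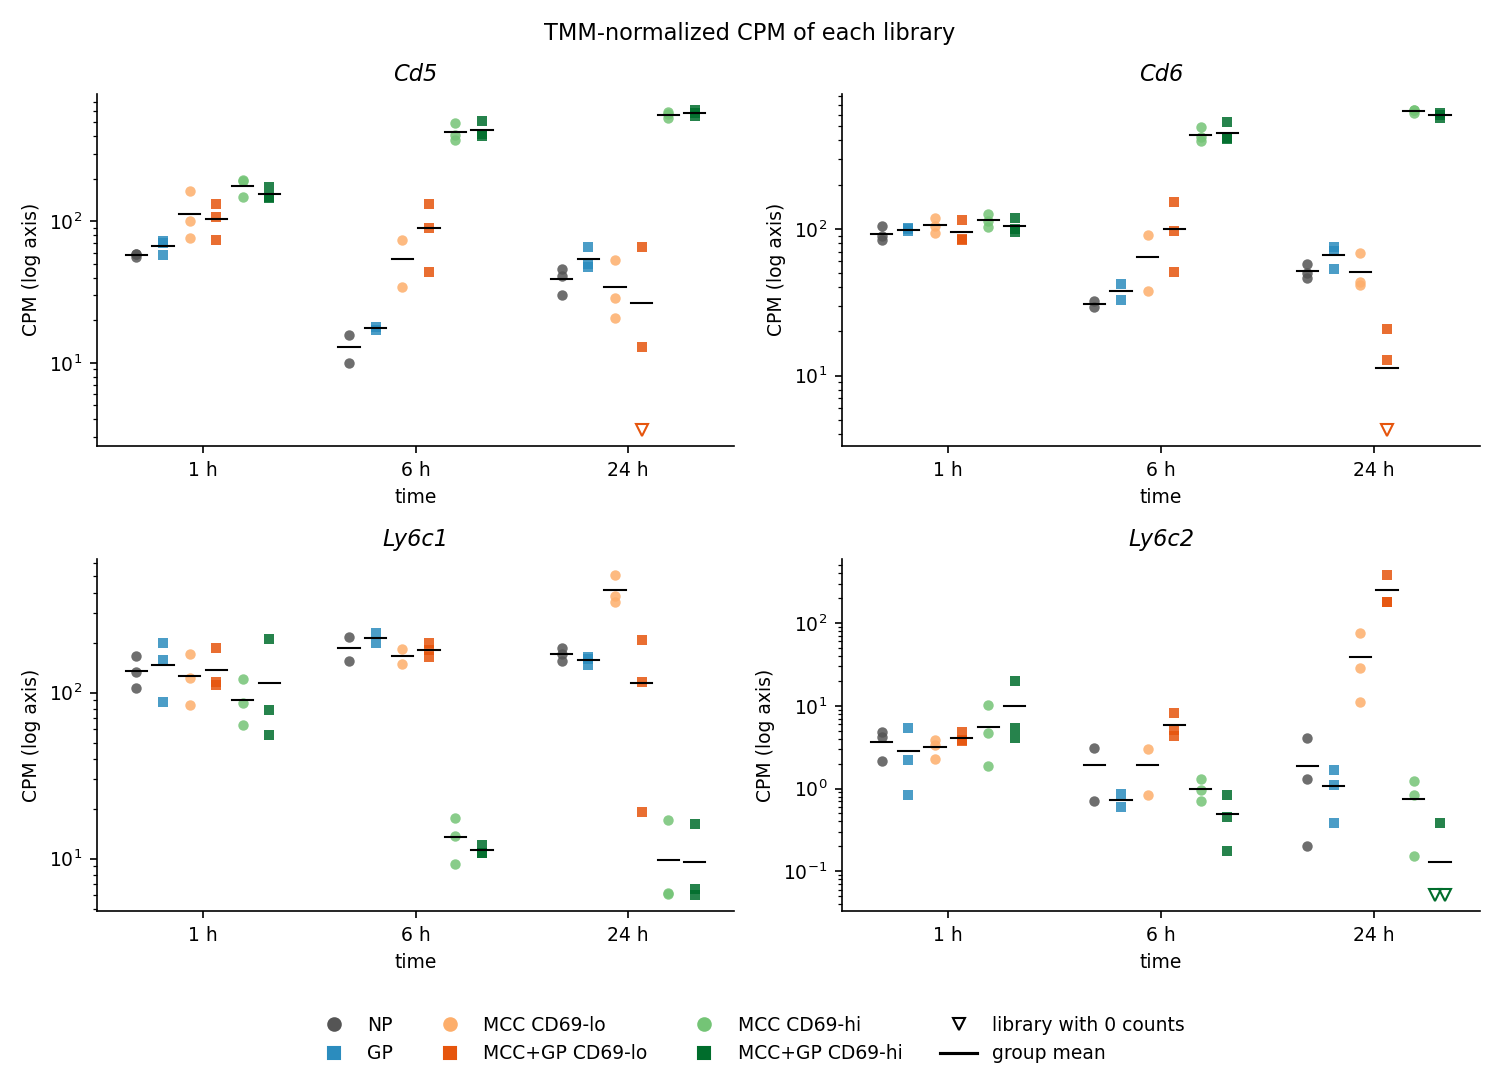
Level of Cd5, Cd6, Ly6c1 and Ly6c2 in CPM on log axes, with 1 point per library, grouped by time and coloured by sorting phenotype; horizontal lines are group means and open triangles mark libraries with 0 counts. Cd5 and Cd6 are highest in CD69-hi cells at 6 and 24 h, where Ly6c1 is lowest, and the NP and GP libraries lie close together at each time.

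The question closest to the use of these genes as marks is whether the self-peptide alone changed them. None of the 4 genes passed the test between GP and NP cells at any time or in the mean over times. At 6 h, Cd5 stood at 17.1 and 17.9 CPM with GP and at 10.05 and 15.7 CPM without peptide. At 24 h, the GP libraries held 47.4, 65.4 and 49.8 CPM of Cd5, each above the 3 NP libraries (30.4, 45.9 and 41.2 CPM). At 1 h, the GP libraries held 70.7, 72.0 and 57.8 CPM and overlapped the NP libraries. With 2 libraries per group at 6 h and 3 at 24 h, the Cd5 ranges were apart at these times, and at 1 h they overlapped. The test across all genes called none of these differences (edgeR unadjusted p = 0.497, 0.320 and 0.148 at 1, 6 and 24 h). Cd6 with GP stood at 96.6, 101 and 99.0 CPM at 1 h, at 32.8 and 42.3 CPM at 6 h, and at 53.6, 70.8 and 75.2 CPM at 24 h, and was apart from the NP libraries at 6 h only. The sample titles give a plate well and name no batch or pairing. For this report the wells, counted down the plate columns, were cut into rounds of 18 consecutive wells. Each round with both groups at a time gave a GP and an NP library to set side by side. Within these rounds, Cd5 was higher with GP in 8 of 8 pairs, Cd6 in 7, Ly6c1 in 4 and Ly6c2 in 4. The rounds were not taken to pair the samples. The share of all genes with such pair counts or separate ranges was not computed, so neither is read as an effect of GP.

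For Cd5 the log2 fold change of GP against NP was 0.21 ± 0.31 at 1 h, 0.45 ± 0.45 at 6 h and 0.47 ± 0.32 at 24 h. Averaged over the 3 times it was 0.38 ± 0.21, which is 1.30-fold, with a 95% interval of -0.05 to 0.80 (edgeR, unadjusted p = 0.0809, adjusted p = 1). Cd6 gave 0.10 ± 0.23, 0.29 ± 0.30 and 0.37 ± 0.24 at the 3 times, and with 0.25 ± 0.15 in the mean (interval -0.05 to 0.56, adjusted p = 1). The intervals of both means include 0 and end below a log2 fold change of 1. Across the table, 0% of genes were called at 1 h, at 6 h and in the mean over times. Of the 17211 genes tested, 138, 126 and 199 had an unadjusted edgeR p under 0.05. That is a smaller share than the 0.05 that a calibrated test gives without any effect. The p-values of this comparison may therefore be too large and its intervals too wide. At 24 h 0.00581% were called, which was the gene Lad1 (log2 fold change 3.25, adjusted p = 0.0118), named here because the count was 1. DESeq2 called 2 genes at 1 h, 2 at 6 h and 5 at 24 h.

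Ly6c1 gave no separation between GP and NP cells. Its levels with GP were 87.4, 198 and 157 CPM at 1 h, 229 and 199.7 CPM at 6 h, and 164, 147 and 159.96 CPM at 24 h, and at each time they overlapped the NP libraries. The mean log2 fold change was 0.07 ± 0.24 (interval -0.43 to 0.57, adjusted p = 1). Ly6c2 had few counts and a wide interval: the mean log2 fold change was -0.86 ± 0.53, with an interval of -1.93 to 0.20 (adjusted p = 1).

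**Figure D2:**
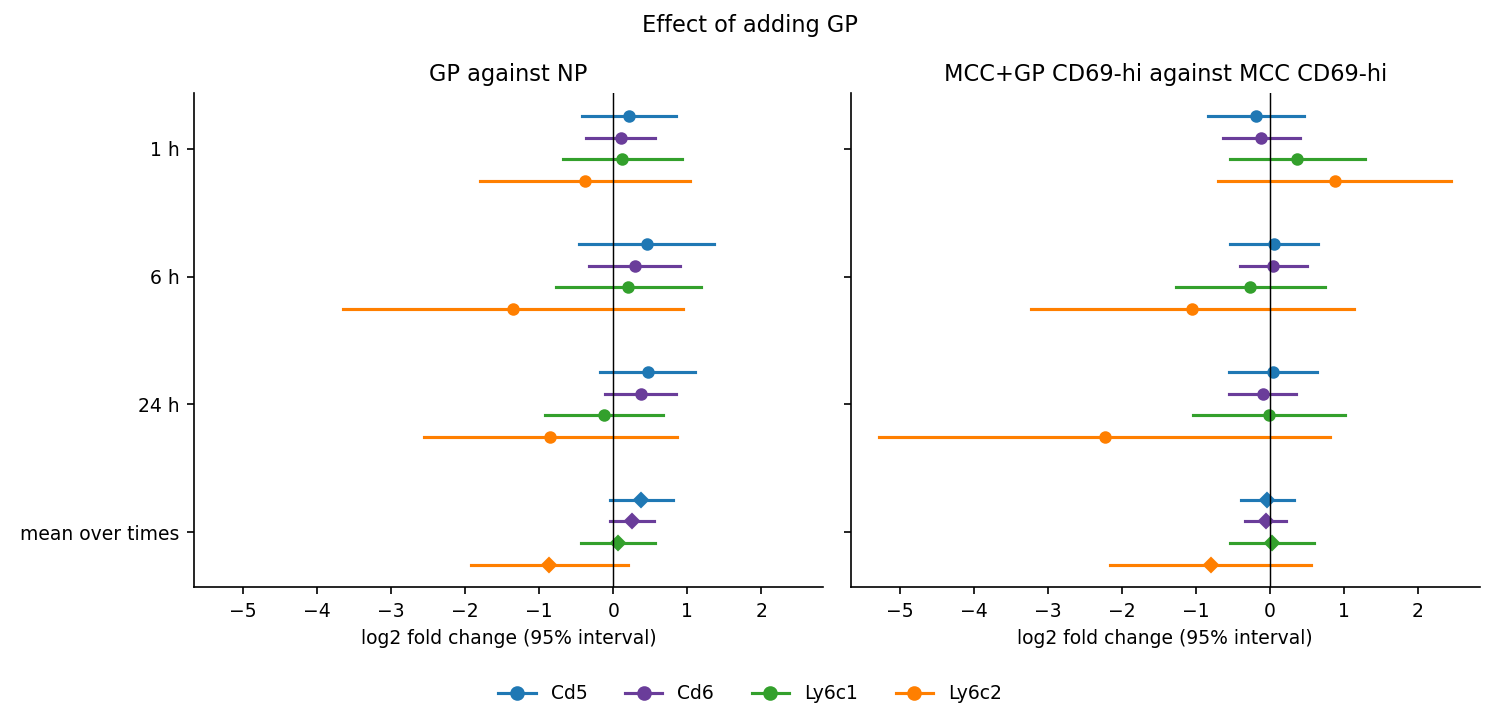
Log2 fold change of GP against NP cells for each gene at 1, 6 and 24 h and for the mean over times, with 95% intervals from the edgeR fit; the vertical line marks no change. The intervals of all 4 genes include 0 at every time, and those of Ly6c2 are the widest.

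Genes that stand with Cd5 and Cd6 in the same pathway were also uncalled with GP alone, as was nearly every gene tested. Over all genes, 0%, 0% and 0.00581% were called at 1, 6 and 24 h, so the list counts below show nothing particular to the pathway. In the first list, none of the 24 tested CD5 and CD6 partners and dampers of proximal receptor signalling rose or fell at any time. In the second list, none of the 15 other marks of receptor signalling did. The median mean-over-times log2 fold change of these 15 was 0.21, beside 0.002 over all genes. That difference was not tested. In that second list, Nr4a1, a nuclear receptor gene induced soon after receptor signalling, is a usual reporter of self-peptide strength. With the agonist, Nr4a1 rose in CD69-hi cells by 4.40 ± 0.47, 5.25 ± 0.53 and 4.17 ± 0.51 on the log2 scale at 1, 6 and 24 h, and in CD69-lo cells by 3.85 ± 0.47, 4.02 ± 0.58 and 5.37 ± 0.52.

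The agonist raised Cd5 in cells sorted as CD69-hi at all 3 times. Cd5 stood at 148, 191 and 196 CPM in MCC CD69-hi libraries at 1 h, at 375, 496 and 408 CPM at 6 h, and at 538, 574 and 589 CPM at 24 h. Each of these libraries lay above every NP library. Against NP cells of the same time, Cd5 rose 3.08-fold at 1 h (log2 fold change 1.63 ± 0.31, edgeR adjusted p = 0.000144), 33.2-fold at 6 h (5.05 ± 0.38, adjusted p = 2.88e-12) and 14.4-fold at 24 h (3.85 ± 0.31, adjusted p = 2.22e-12). The fold was largest at 6 h, when the NP level was lowest, whereas the CD69-hi level itself was 426 ± 62.5 CPM at 6 h and 567 ± 26.5 CPM at 24 h (SD, n = 3). Among all genes tested, 29.4%, 46.7% and 57.8% were called in either direction at 1, 6 and 24 h, and 12.4%, 23.2% and 29.2% were called higher. At 1 h 42.2% of the called genes were higher, and 54.6% with RLE size factors in place of TMM, which moved log2 fold changes up by a median of 0.14.

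Cd6 was called higher at 6 and 24 h but not at 1 h. At 1 h the MCC CD69-hi libraries held 103, 127 and 113 CPM. The lowest of them lay within the NP range of 83.4 to 104 CPM (log2 fold change 0.30 ± 0.24, edgeR adjusted p = 0.384). With only the NP and MCC CD69-hi groups of 1 h in the fit, Cd6 was called (0.48, adjusted p = 0.0322). At 6 h the MCC CD69-hi libraries held 397, 491 and 425 CPM and at 24 h 613, 649 and 640.4 CPM, each far above the NP libraries. The rise was 14.2-fold at 6 h (log2 fold change 3.83 ± 0.27, adjusted p = 1.95e-14) and 12.3-fold at 24 h (3.62 ± 0.23, adjusted p = 1.45e-16). Within the CD69-hi cells, both genes rose from 1 to 6 h, Cd5 by 1.26 ± 0.30 (adjusted p = 0.00102) and Cd6 by 1.95 ± 0.24 (adjusted p = 7.95e-09) on the log2 scale, in a comparison where 22.2% of genes were called higher. Neither was called between 6 and 24 h, where 21.3% of genes were called higher; the value for Cd5 was 0.41 ± 0.29 (adjusted p = 0.285) and that for Cd6 0.54 ± 0.22 (adjusted p = 0.0552). All 3 libraries of 24 h lay above those of 6 h for both genes. Both were called when only these groups entered the fit (adjusted p = 0.0332 and 0.00181), and Cd6 also without the filter on low counts (adjusted p = 0.0125).

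Per length, the order of the 2 neighbours was reversed in MCC CD69-hi cells at 1 h but not at 6 or 24 h. Cd5 was 0.584, 0.379 and 0.702 times the level of Cd6 in NP cells at 1, 6 and 24 h. In MCC CD69-hi cells it was 1.45, 0.903 and 0.831 times that level. In the deposited per-length units, Cd5 went from 0.347 ± 0.015 per 10000 transcripts in NP cells at 1 h to 3.29 ± 0.19 in CD69-hi cells at 24 h, and Cd6 from 0.598 ± 0.08 to 3.95 ± 0.17.

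The Ly6c1 level moved the other way. In MCC CD69-hi cells it stood at 63.4, 121 and 86.3 CPM at 1 h, at 13.7, 9.31 and 17.7 CPM at 6 h, and at 6.20, 6.13 and 17.1 CPM at 24 h. The 1 h libraries overlapped the NP libraries (log2 fold change -0.64 ± 0.42, adjusted p = 0.271), and those of 6 and 24 h lay below every NP library. Ly6c1 was 13.7-fold lower at 6 h (-3.78 ± 0.48, edgeR adjusted p = 3.26e-08) and 17.2-fold lower at 24 h (-4.10 ± 0.45, adjusted p = 2.51e-09), or 27.8-fold without MCC CD69-hi replicate 3 at 24 h. At these times 23.6% and 28.7% of all genes were called lower, and at 1 h 17%. Per length, the ratio of Ly6c1 to Cd5 dropped to 1.64 at 1 h, 0.103 at 6 h and 0.0511 at 24 h in these cells. Ly6c2 gave no call against NP cells at any time (log2 fold changes 0.58 ± 0.73, -0.93 ± 0.92 and -1.35 ± 0.87). Within the CD69-hi cells, Ly6c1 changed by -2.69 ± 0.46 (adjusted p = 1.59e-05) and Ly6c2 by -2.45 ± 0.84 (adjusted p = 0.0145) from 1 to 6 h, where 18.5% of genes were called lower. Ly6c2 held 10.2, 4.66 and 1.86 CPM at 1 h and 0.711, 0.973 and 1.29 CPM at 6 h, and its call was lost without MCC CD69-hi replicate 1 at 1 h (-1.44, adjusted p = 0.312); without replicate 3 the value was -3.06.

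Signalling partners of CD5 and CD6 split by direction in CD69-hi cells. Of the 24 tested partners and dampers, 7 rose and 10 fell at 1 h, 11 rose and 9 fell at 6 h, and 13 rose and 9 fell at 24 h; over all genes 12.4%, 23.2% and 29.2% were higher and 17%, 23.6% and 28.7% lower. Among the 4 most abundant, Lcp2, which encodes SLP-76, rose at all 3 times (log2 fold changes 2.89 ± 0.19, 2.11 ± 0.21 and 0.60 ± 0.19). Grap2, which encodes GADS, fell at each (-2.22 ± 0.18, -4.22 ± 0.21 and -3.97 ± 0.18). Dgka, a diacylglycerol kinase that limits Ras signalling, fell as well (-1.48 ± 0.16, -4.86 ± 0.18 and -4.57 ± 0.16), and Sh2d2a, the adaptor TSAd, rose at 24 h (0.88 ± 0.19, adjusted p = 8.27e-05). The docking partners of the same receptor tail thus did not move together. Alcam, the ligand of CD6, and Ptpn6, the phosphatase SHP-1, were picked after their values were seen. Alcam rose by 2.76 ± 0.65, 3.54 ± 0.55 and 3.15 ± 0.51, and Ptpn6 by 1.18 ± 0.15, 1.56 ± 0.17 and 1.62 ± 0.14. Of the 15 other marks of receptor signalling, 9, 10 and 11 rose and 1, 2 and 1 fell at the 3 times, with a list median log2 fold change of 3.75, 3.09 and 4.41; the median over all genes was -0.05, 0.00 and -0.14.

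In cells given the agonist but sorted as CD69-lo, Cd5 was above the NP libraries at 1 and 6 h and passed the edgeR test at 6 h. At 1 h, Cd5 stood at 163, 101 and 76.6 CPM, each above the NP libraries, with a log2 fold change of 0.97 ± 0.31 and an adjusted p of 0.09; DESeq2 called it (0.96, adjusted p = 0.0257), as did edgeR without the 3 shallow libraries (1.01, adjusted p = 0.0470). At 6 h the 2 libraries held 34.5 and 73.8 CPM against 10.05 and 15.7 CPM in NP cells, a 4.23-fold rise (2.08 ± 0.42, edgeR adjusted p = 0.00236). At 24 h they held 52.9, 28.5 and 20.9 CPM and overlapped the NP libraries (-0.29 ± 0.36, adjusted p = 0.616). Cd6 rose 2.1-fold at 6 h, with 37.7 and 91.5 CPM against 29.3 and 32.4 CPM (1.07 ± 0.30, adjusted p = 0.0436), and gave 0.19 ± 0.23 at 1 h and 0.03 ± 0.26 at 24 h. In these comparisons 2.72%, 2.12% and 9.83% of genes were called higher at 1, 6 and 24 h, and 0.436%, 0% and 8.65% lower. Without MCC CD69-lo replicate 2 at 6 h, the library high in both genes, the 6 h values were 1.43 for Cd5 (adjusted p = 0.198) and 0.29 for Cd6 (adjusted p = 1). The Cd5 call was also lost without NP replicate 1 at 6 h (adjusted p = 0.131), and the Cd6 call without either NP library of 6 h (adjusted p = 0.394 and 0.313).

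B cell markers were higher in the agonist groups at 1 h, and CD5 is also made by a subset of B cells. Their sum was 4198, 2524 and 3319 CPM in MCC CD69-hi replicates 1, 2 and 3 at 1 h, and 1106, 1243 and 3883 CPM in MCC CD69-lo replicates 1, 2 and 3. In the CD69-lo cells the library with the most B cell marker RNA, replicate 3, had the least Cd5 (76.6 CPM), and replicate 1, with the least B cell marker RNA, had the most (163 CPM). At 24 h, MCC CD69-hi cells had 208 ± 67.2 CPM of B cell markers, below the 746 CPM of NP cells, and a Cd5 level of 567 CPM. The part of B cell RNA in the 1 h values was not tested.

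The 2 Ly6c genes rose in the CD69-lo cells at 24 h, a time at which Cd5 and Cd6 were not called. Ly6c1 stood at 382, 512 and 351 CPM, each above the NP libraries (171, 155 and 186 CPM), which was 2.44-fold (log2 fold change 1.28 ± 0.39, adjusted p = 0.022). Ly6c2 stood at 28.3, 75.8 and 11.2 CPM against 0.201, 1.32 and 4.10 CPM, which was 19.7-fold (4.30 ± 0.69, adjusted p = 1.39e-05). At 1 and 6 h neither gene was called: Ly6c1 gave -0.11 ± 0.40 and -0.17 ± 0.48, and Ly6c2 gave -0.25 ± 0.70 and -0.04 ± 0.95. The Ly6c1 call at 24 h was lost when NP replicate 1, NP replicate 2 or MCC CD69-lo replicate 2 was left out (adjusted p = 0.0611, 0.0818 and 0.0806). The Ly6c2 value ranged from 3.25 (without MCC CD69-lo replicate 2, 9.53-fold) to 5.62 (without NP replicate 3, 49.3-fold) over the libraries left out and was called each time.

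Interferon response genes rose in the same CD69-lo libraries. At 24 h, 19 of 20 rose and 0 fell, beside 9.83% of all genes called higher and 8.65% lower. The list median was 2.08 against 0.00 over all genes. The summed level of the list was 10550 ± 359 CPM against 2248 CPM in NP cells. Zbp1, a sensor of nucleic acids, rose by 2.01 ± 0.34, Gbp4 and Gbp2, which encode guanylate-binding proteins, by 2.25 ± 0.41 and 3.97 ± 0.54, and the transcription factor gene Irf1 by 1.72 ± 0.30. In CD69-hi cells the same list had 16 genes lower and 0 higher at 6 h (median -2.72), and 17 lower and 2 higher at 24 h (median -2.59). Over all genes, 23.6% and 28.7% were called lower and 23.2% and 29.2% higher at these times. Zbp1 changed by -4.22 ± 0.39 and -3.59 ± 0.36. In NP cells at 6 h, 11 of 20 interferon genes were higher than at 1 h, beside 7.78% of all genes. Ly6c1 gave 0.45 in that comparison (adjusted p = 0.562). The part of interferon signalling in the Ly6c values was not tested.

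The neighbours of the Ly6c genes in the Ly6 cluster were followed as well. Ly6a, which encodes the surface antigen Sca-1, was at 1079 ± 179 CPM in CD69-lo cells at 24 h and at 191 ± 44.2 CPM in NP cells (log2 fold change 2.498 ± 0.37, adjusted p = 1.32e-05). Ly6e, an interferon-inducible family member, was at 1006 ± 41.9 CPM against 632 ± 84.6 CPM (0.67 ± 0.18, adjusted p = 0.00571). In CD69-hi cells at 6 h both fell, Ly6a by 1.96 ± 0.41 and Ly6e by 2.24 ± 0.20 on the log2 scale. Of the 6 tested members of the family list, 3 rose and 0 fell in CD69-lo cells at 24 h, and 2 rose and 3 fell in CD69-hi cells at 6 h. Over all genes, 9.83% were called higher and 8.65% lower in the first comparison, and 23.2% and 23.6% in the second. One that rose in CD69-hi cells at 6 h was Ly6d, a B lineage marker (2.33 ± 0.60, adjusted p = 0.00175).

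Markers of myeloid and dendritic cells also moved with the Ly6c rise. Summed myeloid markers were 471, 459 and 334 CPM in MCC CD69-lo replicates 1, 2 and 3 at 24 h and 194 ± 103 CPM in NP cells. Of these 16 markers, 4 rose and 0 fell, in a comparison where 9.83% of all genes were called higher and 8.65% lower. Summed dendritic cell markers were 184, 159 and 59.0 CPM against 10.7 ± 5.13 CPM, and 6 of 7 tested rose, with Xcr1 at 0. Siglech, a marker of plasmacytoid dendritic cells, rose by 6.68 ± 1.05 (adjusted p = 3.7e-06). Replicate 3, lowest in both lists, was lowest in Ly6c2 (11.2 CPM) and Ly6c1 (351 CPM), whereas replicate 1, highest in both lists, held less Ly6c2 (28.3 CPM) and Ly6c1 (382 CPM) than replicate 2 (75.8 and 512 CPM). The part of these cells in the Ly6c values was not tested.

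**Figure D3:**
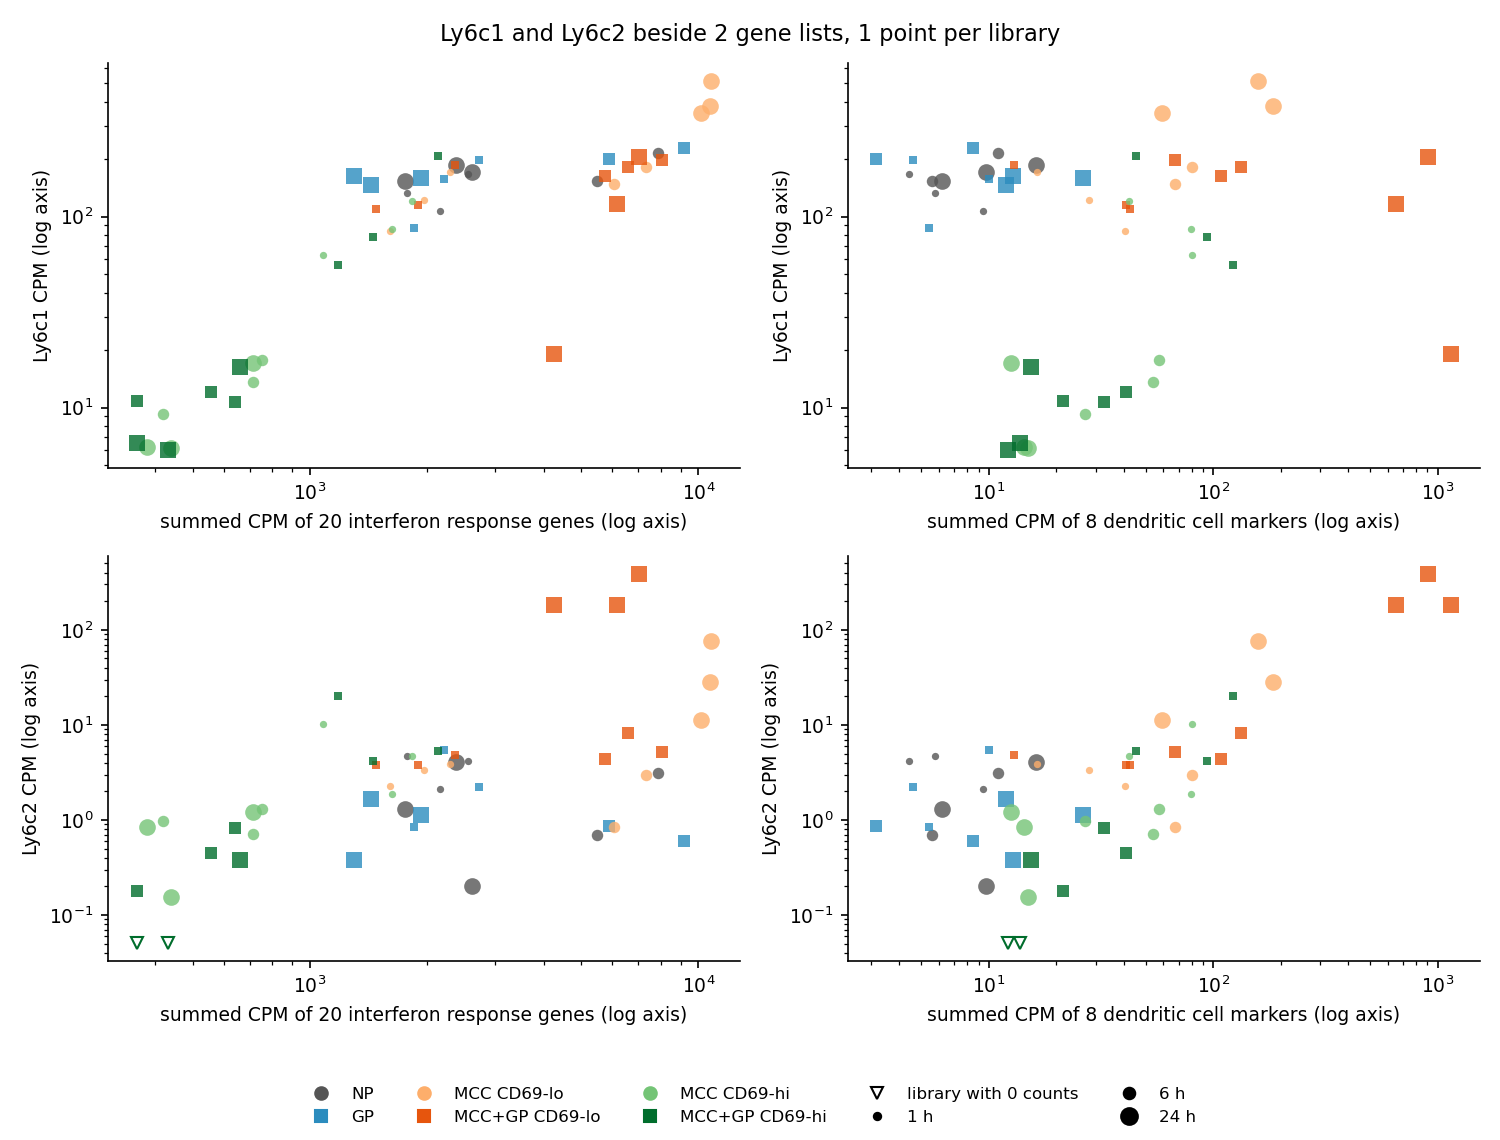
Ly6c1 and Ly6c2 levels in each library against the summed level of 20 interferon response genes and of 8 dendritic cell markers, all in CPM on log axes; colour gives the sorting phenotype, point size the time, and open triangles libraries with 0 counts. The MCC CD69-lo libraries at 24 h lie at the top of the interferon axis, and the 3 MCC+GP CD69-lo libraries at 24 h at the top of the dendritic cell axis and of Ly6c2.

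Setting the CD69-hi cells against the CD69-lo cells of the same time gave higher Cd5 and Cd6 and lower Ly6c1 in CD69-hi cells at 6 and 24 h, and lower Ly6c2 at 24 h. Cd5 was 7.84-fold higher in CD69-hi cells at 6 h (log2 fold change 2.97 ± 0.34, edgeR adjusted p = 3.06e-08) and 17.7-fold higher at 24 h (4.15 ± 0.35, adjusted p = 3.47e-12). Cd6 was 6.76-fold higher at 6 h (2.76 ± 0.26, adjusted p = 4.7e-11) and 12.1-fold higher at 24 h (3.60 ± 0.25, adjusted p = 9.98e-16). Ly6c1 was 12.2-fold lower at 6 h (-3.61 ± 0.48, adjusted p = 9.35e-08) and 41.9-fold lower at 24 h (-5.39 ± 0.45, adjusted p = 1.52e-11). Ly6c2 was 50.4-fold lower at 24 h (-5.66 ± 0.80, adjusted p = 2.88e-08), with 0.845, 0.153 and 1.22 CPM in CD69-hi cells; at 6 h it gave -0.89 ± 0.93 (adjusted p = 0.466) and at 1 h 0.82 ± 0.75 (adjusted p = 0.523). Without MCC CD69-lo replicate 2 of the same time, the folds were 12.3 for Cd5 and 11.6 for Cd6 at 6 h and 24.3 for Ly6c2 at 24 h, and without MCC CD69-hi replicate 3 at 24 h the Ly6c1 fold was 68.1. At 1 h none of the 4 was called; the value for Cd5 was 0.65 ± 0.31 (adjusted p = 0.171), DESeq2 gave 0.81 (adjusted p = 0.0415), and without MCC CD69-lo replicate 1 it was 1.08 (adjusted p = 0.0329). The share of all genes called was 12.5%, 42.4% and 61.7% at 1, 6 and 24 h; the share called higher was 3.46%, 19.9% and 29.1%, and the share called lower was 9.06%, 22.5% and 32.6%. At 1 h 27.6% of the called genes were higher, and 48.4% with RLE. These comparisons use the same CD69-hi and CD69-lo libraries as those against NP cells, so they are not independent of them.

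**Figure D4:**
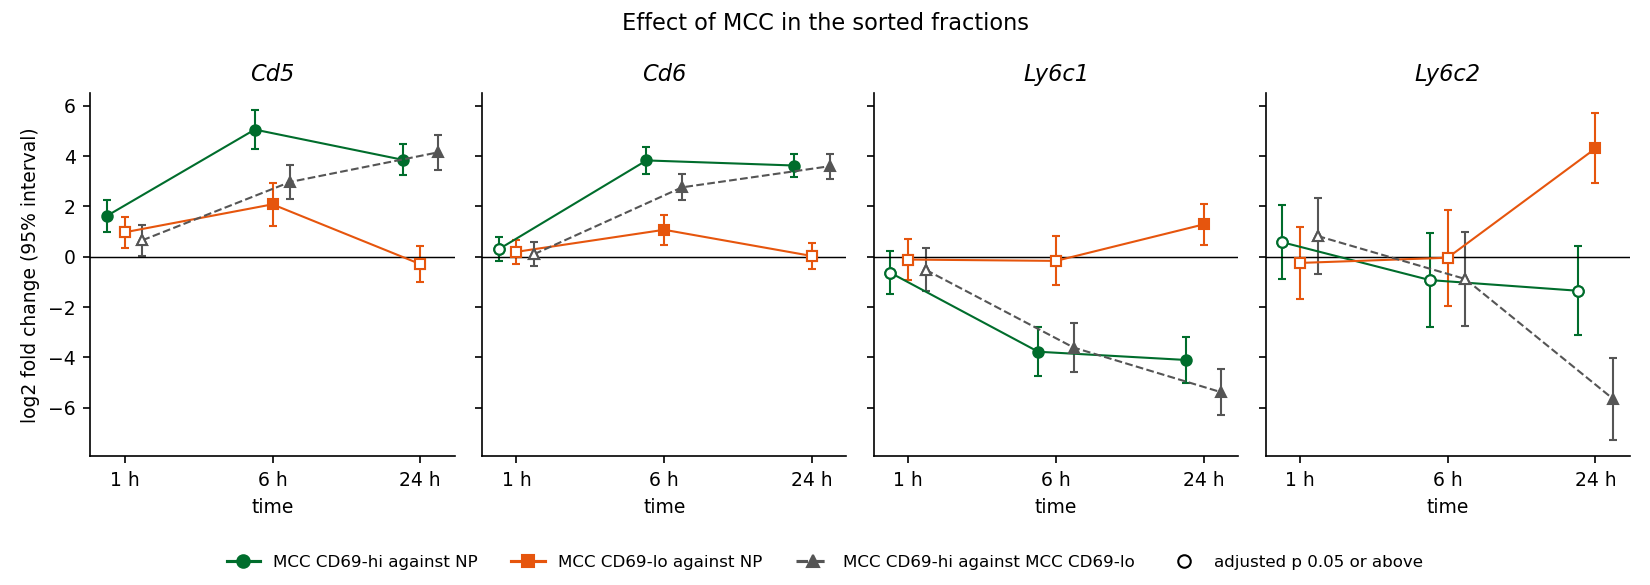
Log2 fold changes with 95% intervals for the 4 genes at 1, 6 and 24 h, for MCC CD69-hi against NP, MCC CD69-lo against NP and MCC CD69-hi against MCC CD69-lo cells; the horizontal line marks no change. Cd5 and Cd6 lie above 0 and Ly6c1 below it in CD69-hi cells at 6 and 24 h, and both Ly6c genes lie above 0 in CD69-lo cells at 24 h.

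Adding GP to the agonist left the 4 genes uncalled in CD69-hi cells. Cd5 stood at 174, 149 and 147 CPM at 1 h, at 413, 513 and 398 CPM at 6 h, and at 579.5, 552 and 615 CPM at 24 h with both peptides, in ranges that overlapped those of MCC alone. Cd6 stood at 99.1, 95.1 and 118 CPM, at 407, 535 and 412 CPM, and at 594, 569 and 616 CPM. Over the 3 times, MCC+GP against MCC gave mean log2 fold changes of -0.03 ± 0.17 for Cd5 (interval -0.39 to 0.32), -0.06 ± 0.14 for Cd6 (-0.33 to 0.22) and 0.03 ± 0.28 for Ly6c1 (-0.54 to 0.60). The interval of Cd5 leaves out a change of more than 0.39 in either direction. The Ly6c1 libraries with both peptides held 209, 78.6 and 55.6 CPM at 1 h, 10.7, 10.8 and 12.1 CPM at 6 h, and 6.52, 6.01 and 16.2 CPM at 24 h. Ly6c2 gave -0.80 ± 0.67 (-2.16 to 0.55). It was at 0 counts in replicates 1 and 2 of MCC+GP CD69-hi cells at 24 h. Of all genes, 0.68% were called at 1 h (33.3% of them higher, 60.9% with RLE), 0% at 6 and 24 h, and 0.0116% in this mean over times, which were Elmo2 and Pgm2, named because they were 2; 1210 genes had an unadjusted p under 0.05 and DESeq2 called 13.

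A direct test asked whether the GP effect in CD69-hi cells given the agonist differed from the GP effect without agonist, averaged over times. The difference of log2 fold changes was -0.41 ± 0.27 for Cd5, -0.31 ± 0.20 for Cd6, -0.04 ± 0.37 for Ly6c1 and 0.06 ± 0.85 for Ly6c2, each with an adjusted p of 1. Of all genes 0% were called by edgeR, 648 had an unadjusted p under 0.05, and DESeq2 called 1.

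In CD69-lo cells, adding GP to the agonist gave no call for the 4 genes at 1 or 6 h. At 1 h Cd5 held 73.3, 132 and 107 CPM with both peptides, in a range that overlapped that of MCC alone (163, 101 and 76.6 CPM). At 6 h it held 43.7, 133 and 90.3 CPM against 34.5 and 73.8 CPM (log2 fold change 0.70 ± 0.35, adjusted p = 0.882), and Cd6 50.7, 153 and 97.2 CPM against 37.7 and 91.5 CPM (0.62 ± 0.26, adjusted p = 0.874). Ly6c2 at 6 h held 5.14, 4.35 and 8.24 CPM against 2.99 and 0.834 CPM, ranges that did not overlap (1.66 ± 0.82, adjusted p = 0.874). Of all genes 0% were called at 1 h and at 6 h. Summed B cell markers were 1692 ± 401 CPM with both peptides and 982 ± 292 CPM with MCC alone at 6 h.

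The 24 h CD69-lo comparison rests on the 3 shallow MCC+GP libraries. Cd5 had 0, 4 and 5 counts there (0, 66.3 and 13.04 CPM), Cd6 4, 0 and 8 counts (12.8, 0 and 20.9 CPM), Ly6c1 6, 7 and 79 counts (19.2, 116 and 206 CPM), and Ly6c2 57, 11 and 147 counts (182, 182 and 383 CPM). A count of 0 allows up to 3 counts, which on the same TMM scale is 9.58 CPM for Cd5 in replicate 1 and 49.7 CPM for Cd6 in replicate 2, for counting error only. Ly6c2 was 6.57-fold higher than with MCC alone (log2 fold change 2.71 ± 0.60, adjusted p = 0.00155), Cd6 was lower (-1.74 ± 0.61, adjusted p = 0.0178), Ly6c1 was lower (-1.82 ± 0.54, adjusted p = 0.0134), and Cd5 was not called (-1.39 ± 0.90, adjusted p = 0.24). Of all genes, 7.37% were called higher and 12% lower; 38.1% of the called genes were higher, and 57.1% with RLE, which moved log2 fold changes up by a median of 0.22. The Cd6 call was lost without MCC+GP CD69-lo replicate 1 (-1.52, adjusted p = 0.130) or MCC CD69-lo replicate 2 (-1.43, adjusted p = 0.0689). The Ly6c1 call was lost without MCC+GP CD69-lo replicate 1 (-1.13, adjusted p = 0.169), and without replicate 3 the value was -3.44. Without MCC CD69-lo replicate 2, Ly6c2 was 13.6-fold higher. With only these groups in the fit, the Cd6 and Ly6c1 calls were lost (-1.55, adjusted p = 0.220, and -1.63, adjusted p = 0.0523).

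Ly6c2 thereby took 72.2 ± 15.9% of the counts of both Ly6c genes in these libraries (n = 3), against 7.64 ± 4.95% in MCC CD69-lo cells at 24 h. T cell defining markers and myeloid markers moved with this: 10 of 12 T cell markers fell against MCC CD69-lo cells, 6 of 16 myeloid markers rose and 1 fell, and 5 of 7 dendritic cell markers rose. Summed myeloid markers were 1811 ± 630 CPM and summed dendritic cell markers 901 ± 246 CPM, with Cd14, F13a1, Itgam, S100a8 and S100a9 at 0 in all 3 libraries. The interferon list went the other way, with 10 of 20 genes lower. Over all genes, 7.37% were called higher and 12% lower in this 24 h comparison. The part of these cells in the Ly6c2 value was not tested. Averaged over the 3 times, Ly6c2 was higher with both peptides by 1.59 ± 0.41 on the log2 scale (adjusted p = 0.00868), in a comparison where 3.53% of genes were called higher and 7.47% lower (32.1% of calls were higher, 48.9% with RLE); without MCC CD69-lo replicate 2 at 6 h the adjusted p was 0.0536, and the mean of 1 and 6 h alone was 1.03 (adjusted p = 1).

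Ordered by group mean, Cd5 spanned a 45.3-fold range, Cd6 56.6-fold and Ly6c1 43.3-fold. For Cd5, the 2 CD69-hi groups of 24 h were at the top (582 and 567 CPM) and did not differ beyond their spread, the 2 of 6 h came next (441 and 426 CPM), and the 2 of 1 h followed (178 and 156 CPM). Ranges separated the first pair from the second and the second from the third. Below that, neighbouring groups overlapped down to GP at 6 h (17.5 ± 0.528 CPM), whose libraries lay above those of NP at 6 h (12.8 ± 3.97 CPM), the lowest group. Of the 17 pairs of neighbours in the order, 3 were separate for Cd5, 5 for Cd6, 2 for Ly6c1 and 1 for Ly6c2. The groups held 2 or 3 libraries and no such count was made over all genes, so these counts carry no test.

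For Ly6c1, the MCC CD69-lo group at 24 h stood alone at the top (415 ± 85.2 CPM). A series of 13 overlapping groups ran from GP at 6 h (214 CPM) to MCC CD69-hi at 1 h (90.3 CPM), and a gap separated these from the 4 CD69-hi groups of 6 and 24 h (13.6 to 9.59 CPM). For Ly6c2 the MCC+GP CD69-lo group at 24 h (249 ± 116 CPM) stood above MCC CD69-lo at 24 h (38.4 ± 33.5 CPM), and the other 16 groups lay at 9.90 CPM or below. Per length, Ly6c2 was at 4.32 ± 1.5 per 10000 transcripts in the first of these groups and at 0.0393 ± 0.014 in NP cells at 1 h, where Ly6c1 was at 2.72 ± 0.48.

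Across the 18 group means of log2 CPM, Cd5 and Cd6 had a Pearson r of 0.960, Cd5 and Ly6c1 of -0.782, Cd6 and Ly6c1 of -0.738, and Ly6c1 and Ly6c2 of 0.419. These describe groups that share their time and sort gate, and carry no test. Among 10159 genes, those most like Cd5 were Mrto4 (r = 0.985), Grwd1 (0.982) and Gar1 (0.980), and those most like Cd6 were Atp2a2 (0.995), Pum3 (0.994) and Bop1 (0.991). Cd6 ranked 48 in likeness to Cd5, so several genes followed Cd5 more closely than its neighbour did. Those most like Ly6c1 were Sp100 (0.988), a nuclear body gene induced by interferon, Treml2 (0.982) and the predicted gene Gm8995 (0.981). Those most like Ly6c2 were Gas7 (0.956), Fcer1g (0.951), the common Fc receptor gamma chain of myeloid cells, and Pltp (0.942), a phospholipid transfer protein.

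Lists of other genes and cell types give the setting of these values, beside 17%, 23.6% and 28.7% of all genes called lower and 12.4%, 23.2% and 29.2% called higher in MCC CD69-hi cells at 1, 6 and 24 h, and 0.436%, 0% and 8.65% lower and 2.72%, 2.12% and 9.83% higher in CD69-lo cells. Of 10 naive T cell genes, 8, 9 and 8 fell in MCC CD69-hi cells at 1, 6 and 24 h, and 3, 0 and 7 in CD69-lo cells. Of 12 T cell defining markers, 7, 8 and 10 fell and 0, 1 and 1 rose in CD69-hi cells, and 0, 0 and 6 fell in CD69-lo cells. Of 14 B cell markers, 14 rose in CD69-hi cells at 1 h and 9 fell at 24 h, and 12 rose in CD69-lo cells at 1 h. Plasma cell markers (3 tested) had 2 higher in CD69-hi cells at 1 h, the 7 tested endothelial and stromal markers had 2 higher in CD69-lo cells at 24 h, and of 8 CD8 T and NK cell markers 6 rose and 1 fell there. In CD69-lo cells 3, 4 and 4 of the 24 partners and dampers rose and 1, 0 and 4 fell at 1, 6 and 24 h, and 8, 8 and 10 of the 15 other marks of receptor signalling rose. No member of any of these lists was called between GP and NP cells, where 0%, 0% and 0.00581% of all genes were called at 1, 6 and 24 h.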

How the data were processed

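RNA was measured by paired-end sequencing of 51 poly-A libraries made from sorted T cells. Per the submitters' processing notes, the tools named are bcl2fastq 2.20, STAR 2.6.1c and HTSeq 0.9.1, with the mm10 build; their settings, strand and the handling of reads that map to several genes are not given in the sources used here. The authors deposited a table of read counts per gene and a table of TPM values whose columns sum to 9986 to 9996, so these are given per 10000 transcripts. The count table has 34923 features, 0 of them without a name, and 19 repeat a symbol of an earlier row; 0 sample columns were left out.

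From the counts, TMM-normalized CPM and tests were computed with edgeR 4.0.16 in R 4.3.3: filterByExpr kept 17211 genes, and 1 quasi-likelihood model with robust dispersion and 1 coefficient per group was fitted to all 51 libraries. P-values were Benjamini-Hochberg adjusted over all tested genes, and 0.05 was the threshold. Errors of log2 fold changes are SE; intervals are 95% intervals of the fit and include the spread between libraries. Marker sums are plain CPM. Limits for 0 counts cover counting error only. Counts were simulated for the GP against NP comparison (mean over times, 16461 genes), with the spread fitted over all 51 libraries. The changed genes were drawn from those with a mean NP level over 5 CPM. Of these, 94 of 100 changed 2-fold and 100 of 100 changed 4-fold were recovered, and 8 unchanged genes were called. Ly6c2 stood below that level, at 3.70, 1.92 and 1.87 CPM in NP cells at 1, 6 and 24 h. The simulation therefore does not cover Ly6c2. The main calls were repeated with DESeq2 1.42.0, with RLE scaling, with all features kept, and with a fit restricted to the groups compared. They were also repeated with the plate round, inferred from the wells and not named in the labels, as a block. Further repeats removed the 3 shallow libraries or any 1 library.

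The members and the gene lists were chosen with earlier results of these data known. Named genes are the members, Ly6a and Ly6e, the 4 members of each list with the highest mean CPM of which those bearing on a result are printed, and the 3 genes most like each member (Pearson r over 18 group means of log2 CPM, prior count 2, at least 5 CPM); others are marked as picked after their values were seen. The comparisons share NP libraries.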

Additional observations from a re-analysis of the deposited data

Results flagged for a closer look

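Each result here was picked out because the same contrast gave a different log2 fold change at 2 times, by an edgeR test of the difference itself over all genes. The comparisons share libraries, so they are not independent of one another.

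For MCC CD69-hi against NP cells, the Cd5 effect was larger at 6 h than at 1 h by 3.43 ± 0.49 (adjusted p = 1.36e-06) and larger at 24 h than at 1 h by 2.23 ± 0.44 (adjusted p = 8.02e-05). The Cd6 effect was larger by 3.53 ± 0.36 at 6 h (adjusted p = 3.37e-10) and by 3.33 ± 0.33 at 24 h (adjusted p = 6.44e-11). The Ly6c1 effect changed by -3.14 ± 0.64 (adjusted p = 0.000189) and by -3.47 ± 0.62 (adjusted p = 2.12e-05). For Cd5 and Cd6, these differences include the lower NP level at 6 h.

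For MCC CD69-lo against NP cells, Ly6c2 differed between 24 h and 1 h by 4.55 ± 0.98 (adjusted p = 0.00335). Its NP libraries at 24 h held 1, 7 and 27 counts.

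For MCC CD69-hi against MCC CD69-lo cells, the difference between 6 h and 1 h was 2.32 ± 0.46 for Cd5 (adjusted p = 0.000196), 2.65 ± 0.35 for Cd6 (adjusted p = 1.52e-07) and -3.09 ± 0.64 for Ly6c1 (adjusted p = 0.000261). Between 24 h and 1 h it was 3.49 ± 0.46 for Cd5 (adjusted p = 1.42e-07), 3.49 ± 0.35 for Cd6 (adjusted p = 4.57e-11), -4.86 ± 0.62 for Ly6c1 (adjusted p = 8.91e-08) and -6.48 ± 1.09 for Ly6c2 (adjusted p = 3.28e-06).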

How the results depend on the processing

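No log2 fold change of the 4 genes changed sign after being called, under any alternative run. With RLE size factors no call of a member was lost or gained, and without the filter on low counts the only change was that Cd6 was called in CD69-hi cells from 6 to 24 h (0.51). RLE moved the median of all genes by -0.23 (MCC CD69-hi against CD69-lo, 24 h) to 0.22 (MCC+GP CD69-lo against MCC CD69-lo, 24 h). With the replicate block by plate round, Cd5 was called in MCC CD69-lo against NP at 1 h (0.98), in MCC CD69-hi against CD69-lo at 1 h (0.65) and in NP cells from 1 to 24 h (-0.58), with adjusted p of 0.00521, 0.0465 and 0.0463, and Cd6 in CD69-hi cells from 6 to 24 h (0.54, adjusted p = 0.0175); no other call of a member changed. Libraries of the same plate round did not deviate together in every case: correlations ran from 0.0289 to 0.352 over 30 pairs, 9 of them not over 0.1 (1 of these among the GP and NP pairs), so the rounds were not taken to pair the samples. Without the 3 shallow libraries, Cd5 in CD69-lo against NP at 1 h was called (1.01) and Cd6 at 6 h was not (1.02). With the fit restricted to the groups compared, Cd6 in CD69-hi against NP at 1 h (0.48) and Cd5 in NP cells from 1 to 24 h (-0.56) were called, as were Cd5 (0.26) and Cd6 (0.38) in CD69-hi cells from 6 to 24 h, and Cd5 (2.10) and Cd6 (1.09) in CD69-lo against NP at 6 h were not, nor were Cd6 (-1.55) and Ly6c1 (-1.63) in MCC+GP CD69-lo against MCC CD69-lo at 24 h. DESeq2 called Cd5 at 1 h in CD69-lo against NP (0.96) and in CD69-hi against CD69-lo (0.81). The mean of 1 and 6 h, an alternative chosen after seeing the data, gave Ly6c2 in MCC+GP CD69-lo against MCC CD69-lo cells as 1.03, not called.

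Leaving out 1 library at a time changed the calls of these values, which ranged as follows: Cd6 in NP cells from 1 to 24 h -0.94 to -0.70, Cd5 in CD69-lo against NP at 6 h 1.43 to 2.52 and Cd6 there 0.29 to 1.57, Ly6c1 in CD69-lo against NP at 24 h 1.10 to 1.39, Cd5 in CD69-hi against CD69-lo at 1 h 0.44 to 1.08, and in MCC+GP CD69-lo against MCC CD69-lo, mean over times, Ly6c2 1.36 to 1.97 and Ly6c1 -1.06 to -0.29. The last was called without MCC+GP CD69-lo replicate 3 at 24 h (adjusted p = 0.0357).

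Counts of all genes called moved by over 1.5 times as follows. With the fit restricted to the groups compared, CD69-hi against NP at 1 h went from 5053 to 3348, CD69-lo against NP from 365 to 590 at 6 h and from 3180 to 1706 at 24 h, CD69-hi against CD69-lo at 1 h from 2155 to 885, MCC+GP CD69-lo against MCC CD69-lo from 3326 to 531 at 24 h and from 1892 to 672 in the mean, and NP at 6 h against 1 h from 2845 to 4317. Adding GP to MCC in CD69-hi cells went from 117 to 0 at 1 h and from 2 to 0 in the mean. DESeq2 gave 905 against 543 for CD69-lo against NP at 1 h, 550 against 365 at 6 h, and 270 against 117 for GP added to MCC in CD69-hi cells at 1 h, where no filter gave 177 and leaving out the shallow libraries 270. The replicate block gave 555 for CD69-lo against NP at 6 h. The mean of 1 and 6 h gave 0 for MCC+GP CD69-lo against MCC CD69-lo. Comparisons with 0 or 1 gene called gave at most 8 under these settings. With 1 library left out, CD69-lo against NP fell to 266 at 1 h (without MCC CD69-lo replicate 3), 114 at 6 h (without NP replicate 2) and 1981 at 24 h (without NP replicate 2), NP at 6 h against 1 h to 1484 (without NP replicate 2 at 6 h), CD69-hi against CD69-lo at 1 h to 1362 (without MCC CD69-lo replicate 2), GP against NP at 24 h to 0, and GP added to MCC in CD69-hi cells ranged from 54 to 238 at 1 h and from 0 to 8 in the mean. GP added to MCC in CD69-lo cells at 6 h reached 33 without MCC+GP CD69-lo replicate 1. The cause of these shifts was not tested. Low counts limit Ly6c2 in every group. Even in the CD69-lo groups at 24 h it rested on 22 to 234 counts per library with MCC and 11 to 147 with MCC+GP. They also limit Cd5, Cd6 and Ly6c1 in MCC+GP CD69-lo cells at 24 h.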
